A study of Mus musculus with 6 samples.

Results

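A set of 9 genes was followed in mouse embryonic fibroblasts (MEFs), cells grown out of dissociated embryos. They were the ligand genes Il6, Lif, Il33 and Csf1 and the receptor genes Il6st, Lifr, Osmr, Il1r1 and Il1rl1. All belong to interleukin-6 (IL-6) or interleukin-1 (IL-1) family signalling except Csf1, which is in neither family. The members were taken by symbol from a deposited table of read counts for 23842 genes, in which all 9 were found. Total RNA had been sequenced from 3 MEF samples with the genotype NGLY1-/- and 3 wild-type (WT) samples, all C57BL/6 and untreated, grown in high-glucose medium with serum. NGLY1 is the cytosolic enzyme that removes N-glycans from misfolded glycoproteins. The labels do not give the deleted part of the gene, and nothing in them says that samples of 1 genotype are separate embryos or cultures. The p-values therefore measure only how far these samples spread, which may be technical.

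IL-6, LIF (leukaemia inhibitory factor) and oncostatin M belong to 1 cytokine family whose receptors share the signal-transducing chain gp130, encoded by Il6st. gp130 pairs with the LIF receptor (Lifr), with the oncostatin M receptor (Osmr) or with the IL-6 receptor (Il6ra) and signals through JAK kinases to the transcription factor STAT3. IL-1 and IL-33 bind related receptors, encoded by Il1r1 and Il1rl1 (also called ST2), which share the accessory chain Il1rap and signal through MyD88 to NF-kB. Fibroblasts are a known source of IL-6, LIF, IL-33 and CSF1 (colony-stimulating factor 1, the growth factor of macrophages).

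Library depth ran from 27323577 to 37841558 counts, with WT replicate 3 the shallowest, and ribosomal RNA genes took 0.208% to 3.73% of the counts. The counts of Ngly1 itself were 618, 420 and 457 in the knockout-labelled libraries against 668, 632 and 307 in WT, with a log2 fold change of -0.00 ± 0.19 (SE; adjusted p = 0.99 by the quasi-likelihood test of edgeR). A count over the whole gene does not check a deletion of part of it, so every direction below rests on the labels. Of 13 fibroblast markers, 12 passed the low-count filter, and their summed level was 11008 to 12250 CPM (counts scaled by library size) in the knockout-labelled and 8673 to 9744 CPM in the WT libraries. The higher sum in the knockout-labelled libraries was carried by Fn1, the fibronectin gene, at 7151 ± 529 against 2092 ± 245 CPM (SD, n = 3 each). In WT, Col1a2 had a like level, 2149 ± 348 CPM. By gene, 6 of the 12 were lower and 2 higher in edgeR: S100a4 was 7.59-fold, Thy1 3.11-fold, Vim 2.57-fold, Pdgfra 1.96-fold, Pdgfrb 1.71-fold and Col1a2 1.31-fold lower, and Dcn 4.60-fold and Fn1 3.42-fold higher. Lum, another fibroblast marker, had 1 count over the knockout-labelled and 2 over the WT libraries. The pan-leukocyte gene Ptprc had 0 counts in the knockout-labelled and 3 in the WT libraries. The 7 leukocyte markers in the table summed to 8.93 to 10.2 CPM in the knockout-labelled and 5.23 to 8.21 CPM in the WT libraries, nearly all from Cd68 and Cd14. Cd14, a receptor gene for bacterial lipopolysaccharide, had 6.95 ± 0.54 against 4.29 ± 0.995 CPM (SD, n = 3 each; adjusted p = 0.015 in edgeR). The 5 endothelial markers in the table summed to 2.73 to 2.89 against 1.77 to 2.23 CPM; Kdr was 1.93-fold higher (adjusted p = 0.0148 in edgeR), while Pecam1 had 2 counts over the knockout-labelled and 27 over the WT libraries. The 4 epithelial markers in the table summed to 0.701 to 1.504 against 1.83 to 2.52 CPM. Of these, Krt8 had 4 against 104 counts (22.6-fold lower, adjusted p = 0.000181 in edgeR) and Cdh1 25 against 75 counts (2.84-fold lower, adjusted p = 0.00926), and both passed the low-count filter only through the WT libraries. The part of these markers in the results was not tested. Of the mast cell markers, 2 were in the table, with summed levels of 0.31 to 0.826 and 0.146 to 0.385 CPM, and Ms4a2 had 0 and 1 counts over the groups. In bulk RNA, more cells of a type and more RNA per cell cannot be told apart.

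The annotated starts of the 9 genes were searched for letters bound by factors that act downstream of these receptors or drive cytokine genes. RefSeq promoters (GRCm38.p6, 250 bases before to 50 after each start) were matched for all 9, with 13 starts in all. Each was read on both strands for the NF-kB motif, the interferon response element, TTCNNNGAA (STAT), TGANTCA (AP-1), TGACGTCA (CRE), TGATGNAAT (ATF4 with C/EBP) and TATAAA. The NF-kB letters were in the promoters of Il6 and Csf1, against 1.63% of the 32851 promoters in the same table. The AP-1 letters were in those of Il6, Lif and Osmr, against 7.81% of all promoters. The STAT letters, in 8.3% of all promoters, were in none of the 13 windows. For Lifr, Il1rl1, Il1r1 and Osmr, no window reached the outer start of the gene range given below, so that start was not read. The first window of Lifr began at base 7129322, against a gene start of 7090610. TATAAA, in 13.6% of all promoters, was in both windows of Il33. The promoters of the 4 genes with an NF-kB or AP-1 match are printed 5′ to 3′ along the gene with the matches in capitals. All 4 were higher in the knockout-labelled libraries, but so were 4 of the 5 genes with no such match (Il6st, Il33, Il1rl1 and Il1r1).
Il6, chr5:30012864-30013163, plus strand: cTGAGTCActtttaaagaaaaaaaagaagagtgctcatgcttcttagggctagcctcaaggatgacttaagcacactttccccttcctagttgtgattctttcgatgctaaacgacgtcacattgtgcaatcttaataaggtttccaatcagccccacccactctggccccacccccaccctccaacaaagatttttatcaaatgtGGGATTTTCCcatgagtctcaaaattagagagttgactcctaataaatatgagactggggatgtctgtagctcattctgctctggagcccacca
Csf1, chr3:107760420-107760719, minus strand: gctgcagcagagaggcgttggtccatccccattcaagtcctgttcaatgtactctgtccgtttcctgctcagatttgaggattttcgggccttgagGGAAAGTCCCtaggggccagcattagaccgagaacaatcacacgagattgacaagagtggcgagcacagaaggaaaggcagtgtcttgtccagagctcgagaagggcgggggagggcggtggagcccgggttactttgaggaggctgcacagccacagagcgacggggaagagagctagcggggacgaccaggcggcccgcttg
Lif, chr11:4257318-4257617, plus strand: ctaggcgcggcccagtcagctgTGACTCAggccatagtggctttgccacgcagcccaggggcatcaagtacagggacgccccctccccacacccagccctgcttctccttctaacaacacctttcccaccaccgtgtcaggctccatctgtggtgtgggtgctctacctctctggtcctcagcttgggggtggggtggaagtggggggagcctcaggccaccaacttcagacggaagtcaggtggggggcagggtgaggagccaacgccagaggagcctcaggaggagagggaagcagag
Osmr, chr15:6874264-6874563, minus strand: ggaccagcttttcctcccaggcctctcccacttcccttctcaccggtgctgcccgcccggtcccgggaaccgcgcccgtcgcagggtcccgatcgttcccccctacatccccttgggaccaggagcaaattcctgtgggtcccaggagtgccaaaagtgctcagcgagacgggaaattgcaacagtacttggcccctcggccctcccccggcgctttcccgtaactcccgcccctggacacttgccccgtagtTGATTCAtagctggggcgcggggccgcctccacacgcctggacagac
The capitals of Il6 mark TGAGTCA (AP-1) and GGGATTTTCC (NF-kB). Those of Csf1 mark GGAAAGTCCC, the NF-kB letters on the opposite strand. Those of Lif and Osmr mark TGACTCA and TGATTCA (AP-1). A match of letters is a description and shows no binding.

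Of the 9 genes, 8 were higher and 1, Lifr, was lower in the knockout-labelled libraries at a false discovery rate of 0.05 in edgeR. Over all 15039 genes tested, 60.9% were called, 30.7% higher and 30.2% lower, so a call alone does not set these genes apart. The knockout-labelled and WT libraries did not overlap for any of the 9, as for 67.3% of all tested genes. With a change of at least 2-fold also asked for, 8 of the 9 were called, against 28.5% of all tested genes; Il6st was the exception. That count rests on values close to 2-fold: Csf1 was 1.81-fold higher without WT replicate 1, 1.87-fold without WT replicate 2, 1.97-fold without knockout replicate 1 and 1.98-fold without knockout replicate 3. With library totals only, the log2 fold changes of Csf1 (0.897) and Il1r1 (0.9965) were both under 1. The median log2 fold change was 1.16 over the 9 and -0.04 over all genes that were tested. The 9 genes were chosen with earlier results of these data known, so these contrasts with all tested genes are descriptions only. Il6 passed the low-count filter only through the knockout-labelled libraries, so it could enter the test only with a difference. The other 8 passed it in either group.

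**Figure D1:**
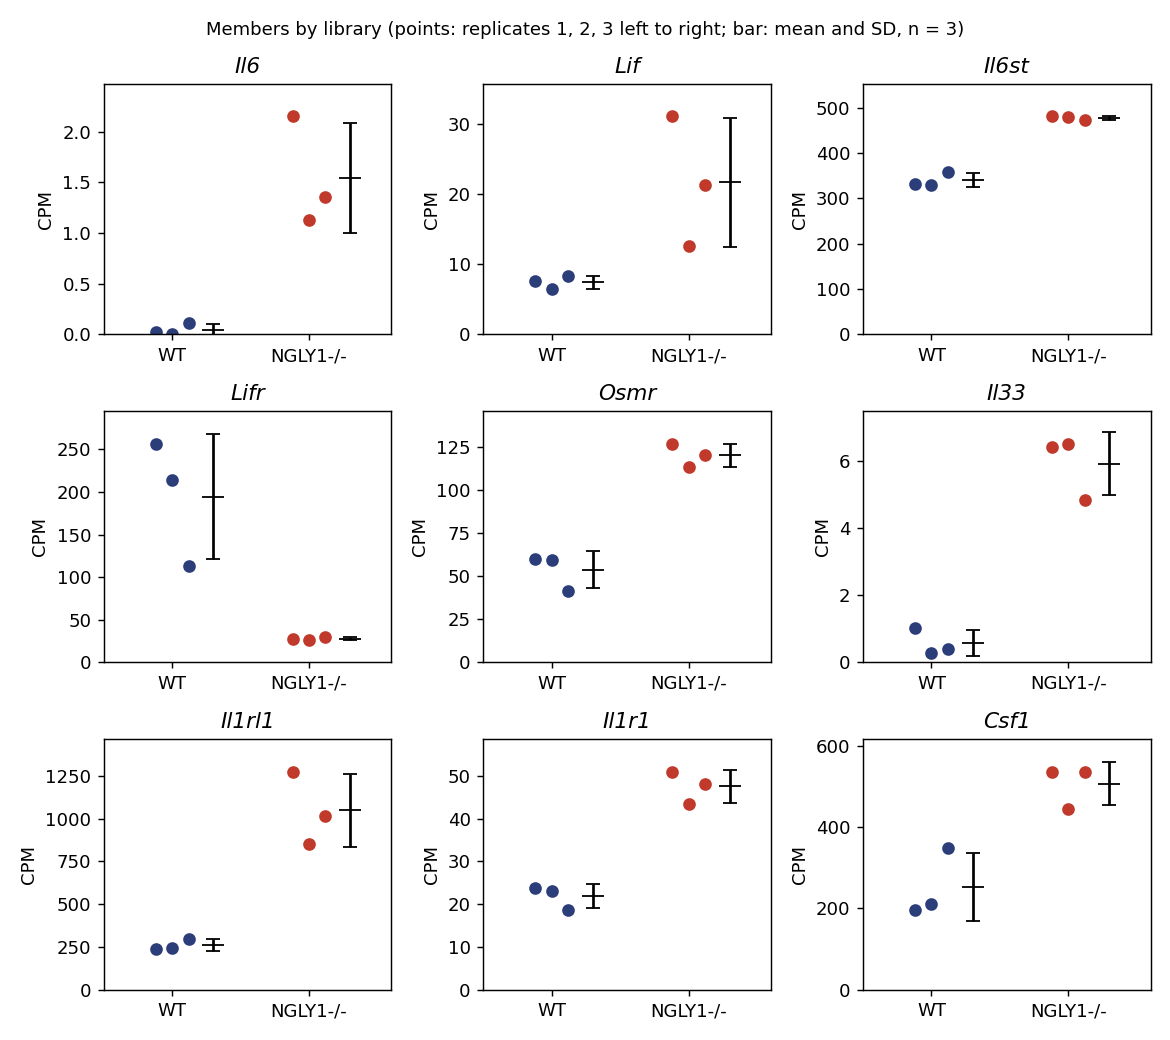
Level in CPM (y axis from 0, own scale per panel) of each of the 9 genes in the 3 WT (blue) and 3 NGLY1-/- (red) libraries, with mean and SD as black bars. The red points lie above the blue ones in 8 panels and below them for Lifr, where WT replicate 3, at 113 CPM, is the lowest WT library.

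Among the ligands, Il6 (gene ID 16193; chromosome 5, 30013114 to 30019975, GRCm38) was near 0 in WT and low in the knockout-labelled libraries. Its counts were 73, 37 and 48 in the knockout-labelled libraries against 1, 0 and 3 in WT, or 2.15, 1.13 and 1.35 CPM against 0.0246, 0 and 0.110 CPM. Every knockout-labelled library was at least at 1.13 CPM, and no WT library passed 0.110 CPM. The fitted rise was 37.0-fold (log2 fold change 5.21 ± 0.69 (SE), adjusted p = 0.000117 in edgeR), and the ratio of summed counts was 41.3 with a 95% exact counting interval of 15.8 to 154. The size rests on 4 WT counts: the fold was 97.7 without WT replicate 3 and 24.4 without WT replicate 2. A noncoding gene whose range covers Il6, A230098N10Rik, had 20 counts over the knockout-labelled and 41 over the WT libraries, the opposite order. The strand setting of the counting is not known from the sources used here, so reads of overlapping genes cannot be told apart.

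Lif (gene ID 16878; chromosome 11, 4257568 to 4272514), whose product maintains mouse stem cells in culture and signals through Lifr and gp130, rose 2.92-fold. Its values were 31.1, 12.6 and 21.3 CPM in the knockout-labelled and 7.57, 6.47 and 8.30 CPM in the WT libraries. The knockout-labelled libraries spread widely, and replicate 2 was closest to the WT range (log2 fold change 1.54 ± 0.29 (SE), adjusted p = 0.00164 in edgeR). The call was lost without both libraries numbered 3 (adjusted p = 0.109, edgeR); over all 15 alternatives its adjusted p ran from 9.74e-08 to 0.109.

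Il33 (gene ID 77125; chromosome 19, 29925113 to 29960718) encodes an alarmin, a nuclear cytokine released from damaged cells. Its counts were 218, 214 and 172 in the knockout-labelled libraries against 41, 11 and 11 in WT, or 6.43, 6.52 and 4.85 CPM against 1.01, 0.283 and 0.402 CPM. The lowest knockout-labelled library stood several fold above WT replicate 1, the highest WT library. The rise was 10.2-fold (log2 fold change 3.36 ± 0.41 (SE), adjusted p = 7.40e-05 in edgeR), and 17.5-fold without WT replicate 1.

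Csf1 (gene ID 12977; chromosome 3, 107741048 to 107760469) was the ligand gene with the highest level in both groups. It had 537, 445 and 537 CPM in the knockout-labelled and 197, 211 and 349 CPM in the WT libraries. WT replicate 3 lay between the other WT libraries and the knockout-labelled ones. The rise was 2.01-fold (log2 fold change 1.01 ± 0.21 (SE), adjusted p = 0.00263 in edgeR).

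Of the receptors of the IL-6 family, Lifr was the gene that fell. Lifr (gene ID 16880; chromosome 15, 7090610 to 7197489) was counted 923, 864 and 1046 times in the knockout-labelled libraries against 10437, 8326 and 3100 times in WT, or 27.2, 26.3 and 29.5 CPM against 257, 214 and 113 CPM. The knockout-labelled libraries were close together and all far below WT replicate 3, the lowest of a wide WT group. The decrease was 7.03-fold (log2 fold change -2.81 ± 0.27 (SE), adjusted p = 4.95e-05 in edgeR).

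Osmr (gene ID 18414; chromosome 15, 6813568 to 6874968), encoding the chain that pairs with gp130 to bind oncostatin M, changed in the opposite direction to Lifr. It had 127, 114 and 121 CPM in the knockout-labelled and 60.2, 59.6 and 41.4 CPM in the WT libraries, with WT replicate 3 the lowest, as for Lifr. The rise was 2.24-fold (log2 fold change 1.16 ± 0.14 (SE), adjusted p = 7.39e-05 in edgeR). The genes are neighbours on chromosome 15, on opposite strands, with 215641 bases between the end of Osmr and the start of Lifr. Among 18 other tested genes starting within 2 Mb of Osmr, 4 were higher and 4 lower, with a median log2 fold change of 0.15, against 0.13 over the 600 other tested genes of the chromosome.

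Because their counts come from the same library, the ratio of Lifr to Osmr does not depend on scaling. It was 4.26, 3.59 and 2.74 in the WT libraries and 0.214, 0.232 and 0.245 in the knockout-labelled libraries, so Lifr had more reads than Osmr in every WT library and fewer in every knockout-labelled one. On the log2 scale the ratio went from 1.80 ± 0.32 to -2.12 ± 0.10 (SD, n = 3 each), a difference of -3.92, with an exact two-sided permutation p of 0.1, the smallest that 3 against 3 libraries allow (adjusted p = 0.1 over the 3 ratios tested).

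Il6st (gene ID 16195; chromosome 13, 112464070 to 112506860), the shared gp130 chain, differed least among the 9. Its values were 481, 479 and 473 CPM in the knockout-labelled and 332, 330 and 358 CPM in the WT libraries, narrow in both groups and without overlap. The rise was 1.40-fold (log2 fold change 0.49 ± 0.09 (SE), adjusted p = 0.000801 in edgeR). The 624 other tested genes of chromosome 13 had a median log2 fold change of 0.43, and of 16 others within 2 Mb, 11 were higher and 1 lower with a median of 0.50; the part of this regional shift in the value of Il6st was not tested. For the other 8 genes, the median of the surrounding 2 Mb lay between -0.15 and 0.29.

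Il1rl1, the IL-33 receptor gene (gene ID 17082; chromosome 1, 40404864 to 40465418), reached the highest level of the 9. It had 43231, 27956 and 36060 counts in the knockout-labelled and 9590, 9428 and 8158 counts in the WT libraries, or 1275, 852 and 1017 CPM against 236, 242 and 298 CPM. Its lowest knockout-labelled library, replicate 2, was well above every WT library. The rise was 4.05-fold (log2 fold change 2.02 ± 0.16 (SE), adjusted p = 5.01e-06 in edgeR). Il1rl1 is known to make both a membrane receptor and a soluble decoy that lacks the membrane part, and a count over the gene does not tell them apart.

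Il1r1 (gene ID 16177; chromosome 1, 40222480 to 40316201), the signalling receptor of IL-1, had 51.0, 43.5 and 48.1 CPM in the knockout-labelled and 23.8, 23.1 and 18.6 CPM in the WT libraries. The groups were narrow and apart, with a rise of 2.17-fold (log2 fold change 1.12 ± 0.12 (SE), adjusted p = 3.60e-05 in edgeR). The ratio of Il1rl1 to Il1r1 counts was 25.0, 19.6 and 21.1 in the knockout-labelled and 9.89, 10.5 and 16.0 in the WT libraries. This was a log2 difference of 0.88 (exact two-sided permutation p = 0.1, adjusted p = 0.1 over the 3 ratios), with no overlap between the groups. The ratio of Il33 to its receptor gene Il1rl1 was 0.00505, 0.00767 and 0.00478 in the knockout-labelled and 0.00433, 0.00122 and 0.00141 in the WT libraries, a log2 difference of 1.55 (exact two-sided permutation p = 0.1, adjusted p = 0.1). In every library Il33 thus had under 1% of the reads of its receptor gene.

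**Figure D2:**
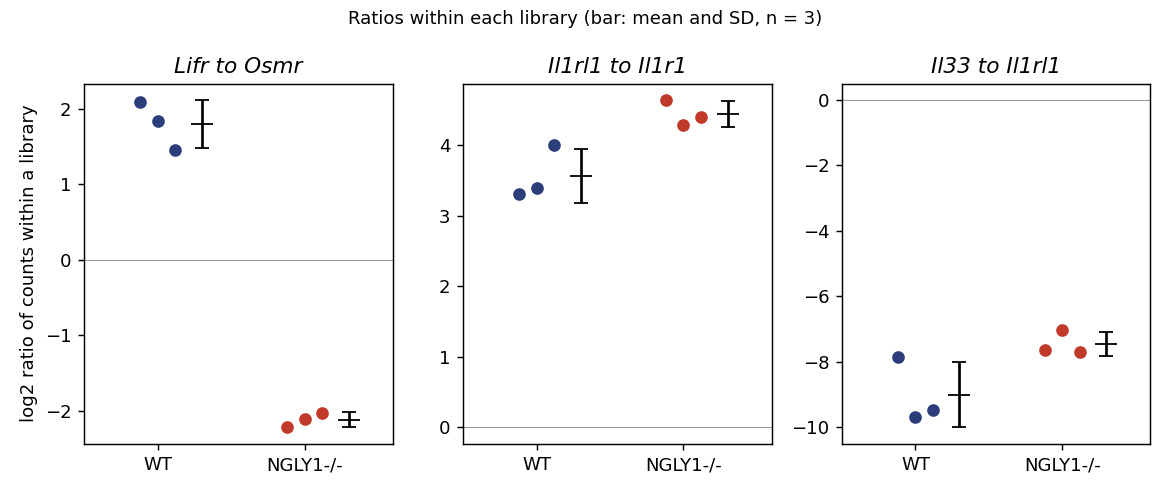
Log2 ratio of counts within each library (y axis, pseudocount 0.5) for Lifr to Osmr, Il1rl1 to Il1r1 and Il33 to Il1rl1 in WT (blue) and NGLY1-/- (red) libraries, with mean and SD (n = 3) as black bars and 0 as a grey line. Lifr to Osmr crosses 0, from 1.80 in WT to -2.12, and WT replicate 1 of Il33 to Il1rl1, at -7.85, lies nearest the red points.

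To set the genes against each other, CPM was divided by exon length (all GENCODE M21 exons of a gene). In the knockout-labelled libraries the order was Il1rl1 (152 CPM per kb), Csf1 (95.9), Il6st (43.0), Osmr (9.94), Il1r1 (7.47), Lif (4.98), Lifr (2.57), Il33 (2.06) and Il6 (0.636). Neighbours in this order overlapped over libraries only for Il1r1 and Lif. In the WT libraries it was Csf1 (47.7 CPM per kb), Il1rl1 (37.5), Il6st (30.6), Lifr (18.1), Osmr (4.43), Il1r1 (3.43), Lif (1.71), Il33 (0.195) and Il6 (0.0184), and Csf1 overlapped with Il1rl1, and Osmr with Il1r1. Lifr thus stood at place 4 in WT and at place 7 in the knockout-labelled libraries. Among 13744 tested genes with a matching exon length, Il1rl1 was within the top 1.7% in the knockout-labelled and the top 7.97% in the WT libraries, Csf1 within the top 2.82% and 5.9%, and Il6st within the top 7.95% and 10.3%. Il6 was at rank 11339 in the knockout-labelled and 13594 in the WT libraries, near the bottom in WT.

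The receptor genes of the IL-1 family lie side by side on chromosome 1, all on the plus strand, in the order Il1r2, Il1r1, Il1rl2, Il1rl1, Il18r1 and Il18rap. Il1rl2, the IL-36 receptor gene, had 10.5, 7.01 and 8.54 CPM in the knockout-labelled and 1.11, 0.591 and 0.622 CPM in the WT libraries, a rise of 11.1-fold (log2 fold change 3.47 ± 0.29 (SE), adjusted p = 5.72e-06 in edgeR). Il18rap, the accessory chain of the IL-18 receptor, had 88.0, 57.4 and 74.9 CPM against 13.8, 14.4 and 17.2 CPM, a rise of 4.86-fold (adjusted p = 2.65e-06 in edgeR). Il18r1, the ligand-binding chain of the same receptor, lies between Il1rl1 and Il18rap and has 133 bases between it and the end of Il1rl1. It had 23, 8 and 16 counts in the knockout-labelled and 19, 10 and 11 counts in the WT libraries (log2 fold change 0.29 ± 0.48 (SE), adjusted p = 0.622 in edgeR), and its groups overlapped. Il1r2, the decoy receptor of IL-1, had 5 counts over the knockout-labelled and 4 over the WT libraries and did not pass the low-count filter. The cluster thus held 4 genes that rose (Il1r1, Il1rl2, Il1rl1 and Il18rap) around 1 gene at 8 to 23 counts per library. With single libraries left out, the rise of Il1rl1 ran from 3.64-fold to 4.48-fold.

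**Figure D3:**
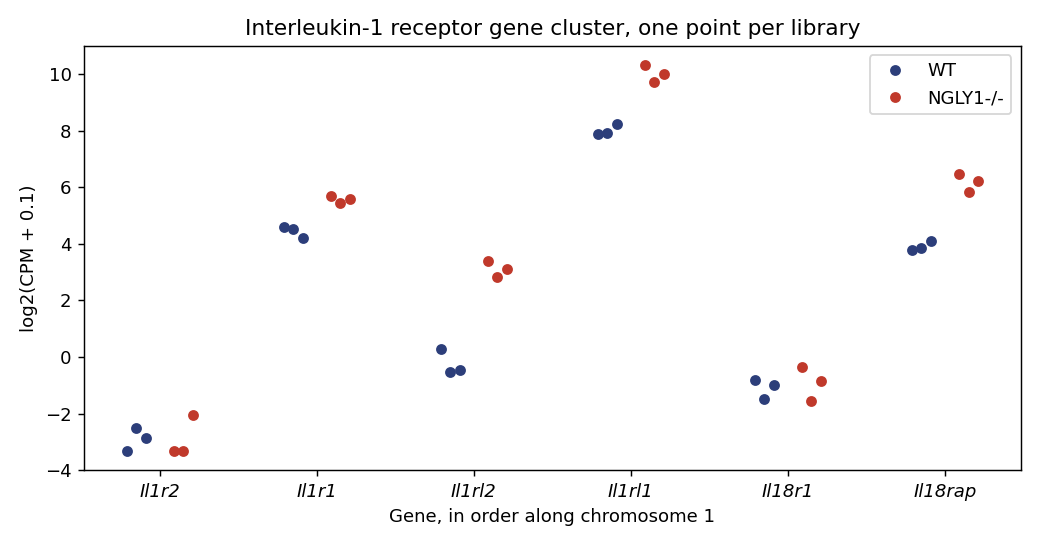
Level of the 6 receptor genes of the chromosome 1 cluster as log2(CPM + 0.1) (y axis), in their order along the chromosome (x axis), 1 point per library, WT blue and NGLY1-/- red. The groups separate for Il1r1, Il1rl2, Il1rl1 and Il18rap and overlap for Il1r2 and for Il18r1, which lies between Il1rl1 and Il18rap.

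Among the other IL-1 family genes, the cluster included, 10 of 17 listed were in the table and 7 were tested, of which 5 were higher and 1 lower (85.7% called, against 60.9% of all tested genes), with a median log2 fold change of 0.84. Il1rn, which encodes the antagonist that blocks Il1r1, had 41.1, 39.2 and 45.6 CPM in the knockout-labelled and 4.67, 4.67 and 1.35 CPM in the WT libraries. It rose 11.5-fold (adjusted p = 6.48e-05 in edgeR), and its lowest knockout-labelled library was far above all WT libraries. Sigirr, an inhibitory receptor of the family, was the gene that fell, 3.59-fold, at 0.631 ± 0.201 against 2.26 ± 0.217 CPM (SD, n = 3 each; adjusted p = 0.000703 in edgeR). Il1rap, the shared accessory chain, rose 1.30-fold (adjusted p = 0.0118 in edgeR), and Il18bp, the soluble IL-18 antagonist, 1.80-fold (adjusted p = 0.00468); both were named after their values were seen. Il1a and Il1b, the genes of IL-1 itself, were not analysed here.

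Of 15 other IL-6 family ligand and receptor genes, 11 were in the table and 7 were tested, with 1 higher and 1 lower, or 28.6% called, under the 60.9% of all tested genes. Il6ra, the receptor chain that binds IL-6, had 14.4, 15.8 and 20.2 CPM in the knockout-labelled and 41.7, 34.3 and 23.3 CPM in the WT libraries. It was 1.97-fold lower (log2 fold change -0.98 ± 0.21 (SE), adjusted p = 0.00346 in edgeR), and knockout replicate 3 came close to WT replicate 3 without overlap. With knockout replicate 1 or 2 or WT replicate 1 or 2 left out, 0 genes of this list were called higher. The log2 fold changes of the ligand genes Clcf1 (0.24, adjusted p = 0.326) and Cntf (-0.35, adjusted p = 0.368) were not called in edgeR.

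The JAK-STAT3 list, of kinases, STATs, feedback inhibitors and target genes, went both ways. Of 25 tested genes, 12 were higher and 10 lower (88% called, against 60.9% of all tested genes; median log2 fold change 0.35). Stat3, named after its values were seen, was 1.29-fold lower (adjusted p = 0.0337 in edgeR). Its knockout-labelled and WT libraries overlapped. Socs2, a feedback inhibitor of cytokine receptors, rose 7.03-fold, at 10.2 ± 1.02 against 1.43 ± 0.274 CPM (SD, n = 3 each; adjusted p = 2.15e-06 in edgeR). Cebpb, a transcription factor of acute phase genes, rose 3.85-fold, at 103 ± 11.3 against 26.8 ± 4.05 CPM (adjusted p = 1.33e-06 in edgeR). Pim1, a kinase gene induced by STAT3, fell 2.66-fold, at 16.4 ± 1.04 against 43.5 ± 0.715 CPM (adjusted p = 2.11e-06 in edgeR). Socs3, the feedback inhibitor that binds gp130, chosen after its values were seen, had 16.7, 22.7 and 19.3 CPM in the knockout-labelled and 34.5, 36.3 and 30.0 CPM in the WT libraries and was 1.72-fold lower (adjusted p = 0.000688 in edgeR). Further target genes were also chosen after their values were seen. Myc was 9.48-fold, Junb 2.46-fold, Timp1 1.99-fold, Bcl3 and Cebpd each 1.84-fold and Il4ra 1.75-fold higher. Bcl6 was 1.38-fold lower (adjusted p for all of these = 0.000217 to 0.0146, edgeR), and Socs1 and Cish were not called. The targets of STAT3 in this list thus did not share 1 direction, though more of those named here were higher than lower.

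Of 33 tested genes of IL-1 receptor signalling and NF-kB targets, 15 were higher and 9 lower (72.7% called, against 60.9% of all tested genes, 30.7% higher and 30.2% lower; median log2 fold change 0.23). Of these, 4 passed the low-count filter only through the knockout-labelled libraries, Cxcl1 and Cxcl5 among them, and 1 only through the WT libraries, so these could enter the test only with a difference. Cxcl5, a neutrophil chemokine gene, had 9.58, 7.83 and 8.18 CPM in the knockout-labelled and 0.147, 0.231 and 0.0732 CPM in the WT libraries, a rise of 53.0-fold (adjusted p = 3.78e-07 in edgeR). Cxcl1, another neutrophil chemokine gene, had 266, 160 and 189 counts against 1, 1 and 3 counts, a rise of 118-fold (adjusted p = 1.25e-06 in edgeR) and of 213-fold without WT replicate 3. Vcam1, a leukocyte adhesion molecule gene, rose 3.06-fold, at 132 ± 18.7 against 43.0 ± 6.47 CPM (SD, n = 3 each; adjusted p = 7.79e-06 in edgeR). Target genes of the list named after their values were seen went both ways. Lcn2, with 1 count over the WT libraries, was 72.8-fold and Ccl20 6.59-fold higher. Both passed the filter only through the knockout-labelled libraries. Ptgs2 was 3.53-fold, Nfkbiz 2.24-fold, Ccl2 2.19-fold and Ccl7 1.88-fold higher. Sod2 was 1.28-fold and Nfkbia 1.24-fold lower (adjusted p for all of these = 6.91e-05 to 0.0337, edgeR), and Tnfaip3 and Zc3h12a were not called. Icam1 and Mmp3 fell more. Icam1, also an adhesion molecule gene, had 30 against 275 counts (8.46-fold lower, adjusted p = 0.000162 in edgeR). It was the gene that passed the filter only through the WT libraries. Mmp3 had 56 against 679 counts, with 45 in WT replicate 3 (10.7-fold lower, adjusted p = 0.000882 in edgeR). Peli2, a ubiquitin ligase gene that acts on IRAK kinases, fell 4.84-fold, at 5.26 ± 0.686 against 25.4 ± 7.12 CPM (adjusted p = 1.48e-05 in edgeR). Of the genes that carry the signal from the receptors, chosen after their values were seen, Myd88 was 1.49-fold higher and Irak1, Irak2 and Irak4 were 1.55-fold, 2.44-fold and 1.30-fold lower, all past the threshold in edgeR (adjusted p = 7.32e-05 to 0.0473). Others of this group were higher: Irak3, an inhibitory member of the IRAK family, 2.42-fold (adjusted p = 0.00778), Chuk 1.45-fold, Rela 1.30-fold, Tab1 1.29-fold and Tollip 1.28-fold (adjusted p = 0.00249 to 0.0342, edgeR). In the same group, Ikbkg was 1.53-fold lower (adjusted p = 0.000316 in edgeR), and Traf6, Tab2, Tab3, Map3k7, Ikbkb and Nfkb1 were not called. The IRAK genes, and the other genes that carry the signal, thus went both ways.

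**Figure D4:**
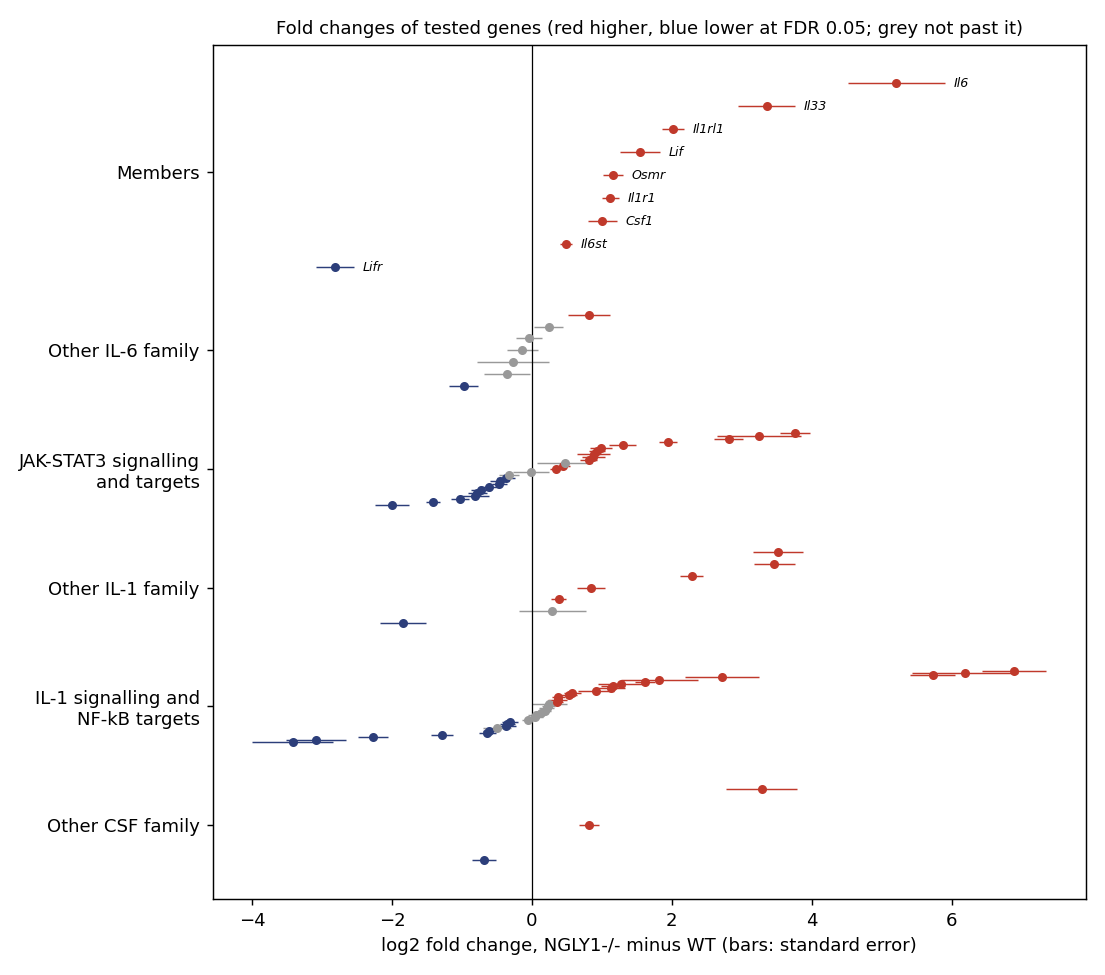
Log2 fold change, NGLY1-/- minus WT, with standard error (x axis) of every tested gene among the 9 followed here and in the 5 lists around them (rows), red where higher, blue where lower and grey where not past a false discovery rate of 0.05. The lists of JAK-STAT3 and IL-1 signalling genes spread to both sides, with 12 higher and 10 lower, and 15 higher and 9 lower.

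Around Csf1, 3 of the 8 other colony-stimulating factor and related genes in the table were tested, and 2 were higher and 1 lower (100% called, against 60.9% of all tested genes). Il34, the other ligand of the CSF1 receptor, was 1.61-fold lower, at 4.39 ± 0.511 against 7.05 ± 0.689 CPM (SD, n = 3 each; adjusted p = 0.00693 in edgeR), the opposite direction to Csf1. Csf1r, the receptor gene and a macrophage marker, had 7 counts over the knockout-labelled and 22 over the WT libraries and did not pass the filter. Csf2ra, the GM-CSF receptor alpha chain gene, had 35, 38 and 40 counts against 3, 8 and 1 counts, a rise of 9.73-fold (adjusted p = 0.000336 in edgeR) and of 18.1-fold without WT replicate 2; it passed the filter only through the knockout-labelled libraries. Kitl, the ligand gene of the receptor KIT, rose 1.76-fold, at 123 ± 16.3 against 69.9 ± 12.5 CPM (SD, n = 3 each; adjusted p = 0.000856 in edgeR).

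By Pearson correlation of log2 CPM over the 6 libraries, the gene most like each of the 9 was sought among the other 83 tested genes of the members and lists. Il1rl1 was most like its neighbour Il18rap (r = 0.999), Osmr most like Il1rn (r = 0.997), Il1r1 most like Osmr (r = 0.994), Il33 most like Il1rl2 (r = 0.984) and Lifr most like Peli2 (r = 0.993). For Il6st it was Cxcl1 (r = 0.998), for Il6 Jak1 (r = 0.993), for Csf1 Myc (r = 0.985) and for Lif Nfkbiz (r = 0.977). These values describe 2 separate sets of 3 libraries, so they mostly carry the difference between the sets.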

How the data were processed

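Per the labels' protocols, Trizol was used to extract total RNA from 6 MEF samples, and sequencing libraries were prepared with a kit that keeps strand. The authors deposited 1 table of raw whole-number counts per gene, keyed by NCBI Gene ID, per the file headers. Per the submitters' processing notes, STAR 2.5.1b and mm10 were used. How reads were assigned to genes (program, annotation, strand) is not given in the sources used here. Columns were matched to sample titles by number and by the tag in both, WT for wild type and PK for the NGLY1-/- samples.

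In R 4.3.3, edgeR 4.0.16 was fitted on all genes: filterByExpr, TMM scaling, robust quasi-likelihood fit on genotype alone, two-sided test, Benjamini-Hochberg over 15039 tested genes at 0.05. CPM uses TMM-scaled library sizes. Fold changes and SEs come from this fit; ratios of summed counts have 95% exact intervals covering counting error only. Depth was 27323577 to 37841558 counts. Alternatives were other scalings and filters, a replicate block, DESeq2 1.42.0, limma 3.58.1 (voom), no structural RNA genes, each library left out and, chosen after seeing the data, both libraries numbered 3. Coordinates and promoters are RefSeq's (GRCm38.p6, the build mm10 denotes); exon lengths are GENCODE M21's. The fits were tested on simulated counts with few changed genes and the same spread for every gene. How they behave with most genes changed was not tested.

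The 9 genes and the lists were chosen with earlier results of these data known. Named were the 9 genes, Ngly1, the 4 genes of each of 5 lists with the smallest p, and the chromosome 1 receptor cluster; others are said to be chosen after their values were seen. Not every gene selected this way is reported here.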

Additional observations from a re-analysis of the deposited data

How the results depend on the processing

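Scaling by library totals only moved the median of all tested genes by -0.12 (log2) and the share of higher among called genes from 50.5% to 42.4% (3911 higher and 5318 lower); each of the 9 genes kept its direction and call there. Over 15 alternatives, 134 of 135 fold changes of the 9 genes kept direction and call, the exception being Lif without both libraries numbered 3 (log2 fold change 1.65, adjusted p = 0.109, edgeR). In the other IL-6 family list, 0 genes were higher with library totals only, with no low-count filter and with a replicate block, and 0 to 1 with single libraries left out. In the other IL-1 family list, 2 were lower with no low-count filter and 1 to 2 with single libraries left out. In the colony-stimulating factor list, 3 were higher and 2 lower with no low-count filter. At 1 CPM in 3 libraries 1 was higher, since fewer genes were tested. Over the alternatives, the IL-1 signalling list had 12 to 17 higher and 6 to 10 lower. At 1 CPM in 3 libraries it had 12 and 10. The JAK-STAT3 list had 12 to 13 higher and 8 to 11 lower. The sign of Ngly1 turned with no low-count filter (0.024) and with the block (0.00085), and ran from -0.18 to 0.10 with single libraries left out, and that of Il18r1 from -0.088 to 0.60. The cause was not tested. Deviations of same-numbered libraries from their group means correlated at 0.096, 0.014 and 0.209. Of the 3 knockout-labelled libraries, 1, replicate 3, was most like its own number. It correlated at -0.138 and -0.176 with WT replicates 1 and 2. WT replicate 3 correlated at -0.163 and -0.034 with knockout replicates 1 and 2. Deviations from a group mean cancel within the group, so these negative values in part follow from the positive one. By chi-square per gene between raw counts of 2 libraries, WT replicates 1 and 2 had 11.3, against 86.7 and 61.8 for pairs with replicate 3. For the knockout-labelled libraries it was 32.2, against 142 and 82.2. By that measure the libraries numbered 3 differed most from the others in both groups, and what they share was not tested. With the block 4690 genes were higher and 4563 lower, against 4621 and 4539. The ratios kept their direction in all alternatives, from -4.13 to -3.77 for Lifr to Osmr, with p = 0.25 by sign flips over the 3 numbered pairs, the smallest exact p these allow. Depth limits Il6, Il18r1 and Il1r2, which rest on a few counts in at least 1 group.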

Other observations

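Counts of Il18rap were 6.91%, 6.74% and 7.37% of those of Il1rl1 in the knockout-labelled libraries and 5.85%, 5.95% and 5.77% in the WT libraries, a comparison chosen after the values were seen. Il18r1, which lies between them, had 0.0286% to 0.0532% of the counts of Il1rl1 in the knockout-labelled and 0.106% to 0.198% in the WT libraries. Il1rl2, upstream of Il1rl1, had 0.823% to 0.84% and 0.208% to 0.469%.

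The receptor chain genes Csf2rb and Csf2rb2, both under the low-count filter and near-identical to each other, lay in opposite directions. Csf2rb had 1 count over the knockout-labelled and 19 over the WT libraries, a WT to knockout ratio of 18.2 with a 95% exact counting interval of 2.89 to 754. Csf2rb2 had 25 and 3 counts, a ratio of 8.72 with an interval of 2.66 to 45.1 in the other direction. Il1rapl1, an IL-1 receptor-like gene of neurons, had 0 counts over the knockout-labelled and 26 over the WT libraries, with a 95% exact counting interval whose lower limit is 6.27-fold lower. With a floor of 3 counts put in place of the 0 over the knockout-labelled group, and no error of the WT counts, it was 8.28-fold lower. That value lies above the lower limit of the interval and is not a bound.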
